A study of Homo sapiens with 12 samples.

Results

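The genes described here are the expressed zinc finger genes of HAP1 cells that lie outside chromosome 19, which holds the densest zinc finger clusters of the human genome. HAP1 is a near-haploid line derived from a chronic myelogenous leukemia. Members were the protein-coding genes of GENCODE release 29 with a symbol of ZNF followed by a digit, on an autosome other than 1, 9 and 19, chosen by a mean raw count of 50 or more over the 6 libraries made with the non-directional kit. Of 220 such genes on these chromosomes 153 were members, on 17 chromosomes, out of 514 protein-coding ZNF genes in all and 58735 genes with a count row. RNA sequencing had been carried out on wild-type HAP1 cells and on HAP1 cells with a SETDB1 knockout, with 3 libraries per genotype in a non-directional kit and 3 per genotype in a directional kit (NEBNext Ultra II), 12 in all. Both genotypes were HAP1 cells grown in IMDM, and whether the knockout is 1 clone is not given in the sources used here. The titles call each library a biological replicate, but do not say that the libraries of a group came from separate cultures. The p-values therefore measure the spread between these libraries, which may be technical.

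Most ZNF genes encode proteins with arrays of C2H2 zinc fingers, each finger folding around a zinc ion and together reading a stretch of DNA. Many of them carry a KRAB domain at the start of the protein, which recruits TRIM28 (KAP1). TRIM28 in turn brings SETDB1, an enzyme that trimethylates lysine 9 of histone H3, together with HP1 proteins and other silencing factors, to transposable elements. KRAB zinc finger genes arose by repeated duplication and often stand in clusters, and their own bodies are known to carry H3K9 trimethylation. The comparison asked how the level of these genes differed between cells with and without SETDB1.

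SETDB1 itself had 651, 543 and 519 counts in wild-type libraries and 118, 106 and 118 in the knockout libraries (log2 fold change -2.39 ± 0.08, SE, adjusted p = 7.02e-43, edgeR quasi-likelihood test with Benjamini-Hochberg adjustment over all genes, which is the test used for every adjusted p below). The non-directional libraries held 8921959 to 10199215 gene counts and the directional libraries 532021 to 676691. The 3 knockout libraries of the non-directional kit differed from each other by no more than sampling noise (chi-square per degree of freedom 0.956, 0.979 and 0.991), whereas wild-type replicate 2 stood apart from the other two (1.82 and 2.00, against 1.03 between those). For this reason counts are also given with the knockout libraries summed as 1 sample and without wild-type replicate 2. Of 12 blood lineage markers, PTPRC, CD33, SPI1, GATA1, MPO, HBG1, HBG2 and CD34 had 0 to 2 counts in every library, so the leukemia named as cell type was not matched by its defining blood markers, while KIT, RUNX1, TAL1 and both partners of the leukemia fusion, BCR and ABL1, were expressed. The summed level of the 12 was 56.0 to 58.2 CPM in wild-type and 37.4 to 40.6 CPM in knockout libraries. Of the 3 that could be tested TAL1 fell (log2 fold change -2.32). BCR and ABL1 rose in the knockout, from a mean of 34.1 to 53.0 CPM and from 14.5 to 38.2 CPM (log2 fold changes 0.64 and 1.40). The summed level of 8 markers of adherent cells was 550 to 586 CPM in wild-type and 619 to 629 CPM in knockout cells, and EPCAM, an epithelial adhesion protein, had 29 to 45 counts in wild-type and 386 to 399 in knockout cells. Of the 6 that could be tested EPCAM, FN1 and KRT8 rose and CDH2 fell, and COL4A1 was at 0 in every library. The part of such differences in the results below was not tested.

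Levels are given as CPM, counts per 1000000 gene counts after TMM scaling. In the wild type the members ranged from 0 to 258 CPM with a median of 21.2, so that most were lowly expressed genes. The members just inside the count minimum were ZNF385B, with a mean of 56.8 counts, and ZNF354C, with 59.7, and the genes just outside it were ZNF619 with 45 and ZNF438 with 44.7. ZNF735 and ZNF354C had 0 counts in each wild-type library and entered only through the knockout, and ZNF385B was under 50 counts in the knockout. These 3 members had to differ between the genotypes, and counts without them are therefore given as well. All 153 members passed the filter on low counts.

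Among the members 54 rose and 13 fell in the knockout, 67 in all (43.8%). Among all 13778 genes tested 51.5% passed the threshold, with 25.5% higher and 25.9% lower, and of the 7727 other protein-coding genes on the same chromosomes at the same count minimum 52.3% passed, 25.6% higher and 26.8% lower. The members thus had a smaller share of calls than the background and a split of 35.3% higher to 8.50% lower. The median log2 fold change of the members was 0.07, with 100 of 153 values above 0, beside a median of -0.001 over all genes tested. Without the 3 members that were under the count minimum in one genotype, 52 of 150 rose and 12 fell. The knockout and wild-type libraries did not overlap for 53 members that were higher and 16 that were lower, against 28.1% and 27.9% of all genes. Without the 3 members that had to differ these numbers were 51 and 15. Most changes were small: among those 150 members 5 rose and 0 fell by at least 2-fold. Of all genes tested, which include genes under the count minimum, 3.61% rose and 4.18% fell by as much. Of the 7727 other protein-coding genes at the same count minimum 84 rose and 158 fell by as much. With the 3 members that had to differ the counts among the members were 7 and 1. With the knockout libraries summed as 1 sample 59 members were called, and without wild-type replicate 2 the test called 64, of which 59 were among the 67.

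The summed level of the members was 5047 to 5158 CPM in the wild-type libraries and 5567 to 5603 CPM in the knockout libraries, so the groups did not overlap. The 68 members with a KRAB box, found by a script in the translation of the longest coding transcript, made up 1620 to 1688 CPM in wild-type and 1985 to 1994 CPM in knockout cells. The 85 members without one made up 3427 to 3486 CPM and 3577 to 3618 CPM. All these sums include members that had to differ. ZNF735 and ZNF354C are in the KRAB sums, at 0 CPM in every wild-type library. In the knockout libraries ZNF735 was at 14.3 to 15.3 CPM and ZNF354C at 11.9 to 12.2 CPM. ZNF385B is in the sums of the 85 members. Sums without these genes are not given.

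**Figure D1:**
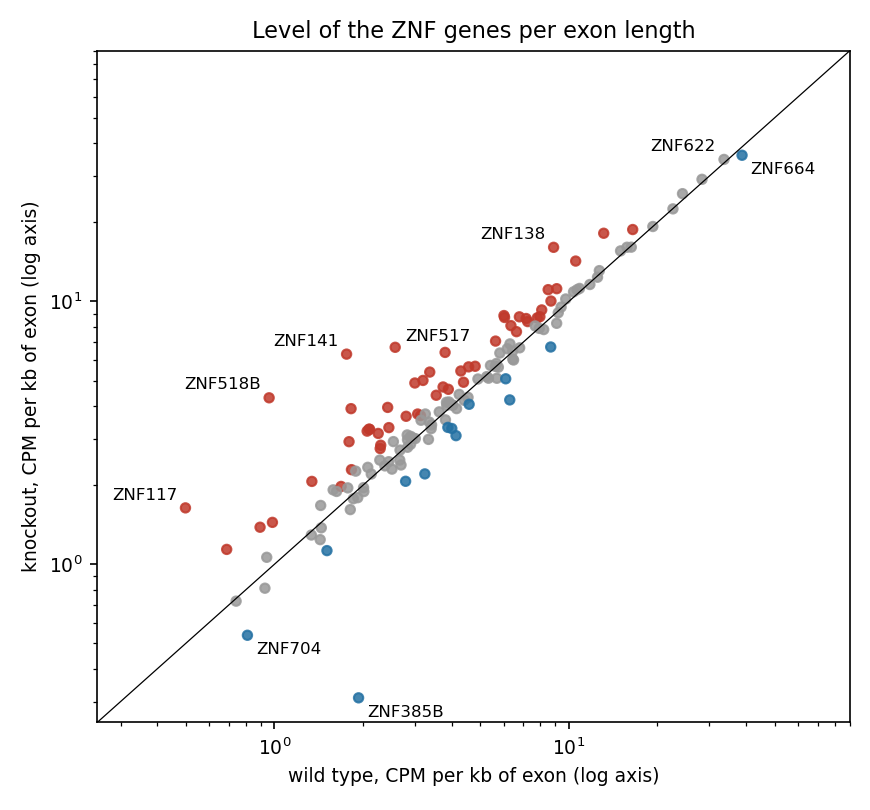
Mean level of each member in the 3 wild-type (x axis) and 3 knockout libraries (y axis) of the non-directional kit, in CPM per kilobase of exon on log axes, with called rises in red, called falls in blue and other members in grey. The highest genes lie close to the line of equality, and ZNF518B, ZNF141, ZNF117 and ZNF517 stand above it at low wild-type levels; ZNF735 and ZNF354C, at 0 in the wild type, are not drawn.

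Calls were then counted by KRAB box, as a description with no test of the difference. Of the 68 members with a KRAB box 32 rose (47.1%) and 1 fell (1.47%), with a median log2 fold change of 0.19, and 53 were above 0. ZNF735 and ZNF354C are among them, and without these 30 of 66 rose, with a median of 0.17. The member that fell, ZNF33B, was at 32.2 ± 0.894 CPM in the wild type and 27.6 ± 1.01 CPM in the knockout (SD, n = 3 each), which is -0.22 on the log2 scale (adjusted p = 0.0066, and 0.105 by DESeq2). Of the 85 members without a KRAB box 22 rose (25.9%) and 12 fell (14.1%), with a median of 0.04. Of all genes tested 25.5% rose and 25.9% fell, so the share of rises in these 85 was near that of all genes. The number of fingers was counted by a pattern of paired cysteines and histidines 12 residues apart. Shares of rises differed little between members with 2 to 9 fingers and those with 10 or more. Of 61 members with 10 or more fingers 23 rose (37.7%) and 3 fell (4.92%), and without ZNF354C 22 of 60 rose. Of 79 members with 2 to 9 fingers, ZNF735 and ZNF385B among them, 29 rose (36.7%) and 7 fell (8.86%). Of 13 members with 0 or 1 finger 2 rose (15.4%) and 3 fell (23.1%). Within the KRAB members other than ZNF735 and ZNF354C, 16 of 35 with 10 or more fingers and 14 of 31 with fewer rose. Among the members without a KRAB box 6 of 25 with 10 or more fingers and 16 of 60 with fewer rose.

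**Figure D2:**
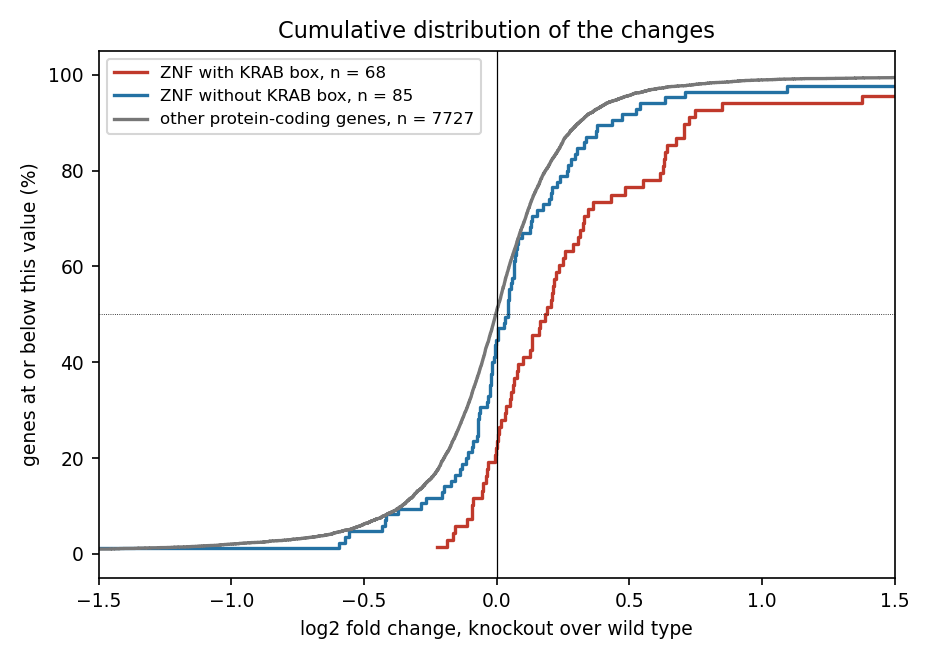
Cumulative share (y axis, percent) of genes at or below a given log2 fold change, knockout over wild type (x axis, with the ends cut off), for the 68 members with a KRAB box, the 85 members without one and 7727 other protein-coding genes of the same chromosomes. The KRAB curve crosses 50% at 0.19, the curve of the other members at 0.04 and that of the other genes at -0.003. ZNF735 and ZNF354C, which had to rise, are in the KRAB curve, and without them its median is 0.17.

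Members were grouped by position, by linking neighbouring ZNF genes less than 500 kb apart. Clusters with 3 or more members numbered 12, and each is named by its outermost members. Of the 64 members in these clusters 32 rose (50%) and 1 fell (1.56%), with a median log2 fold change of 0.21. Of the 89 members elsewhere 22 rose (24.7%) and 12 fell (13.5%), with a median of 0.04. Among all genes tested the shares were 25.5% and 25.9%. Without the 3 members that had to differ, 30 of 62 clustered members rose and 1 fell, with a median of 0.21, and 22 of 88 others rose and 11 fell. KRAB members in clusters rose in 26 of 47 cases (55.3%), or in 24 of 45 without ZNF735 and ZNF354C, and none fell. KRAB members elsewhere rose in 6 of 21 cases (28.6%) and 1 fell. Of the 17 clustered members without a KRAB box 6 rose (35.3%) and 1 fell. The median was above 0 in 11 of the 12 clusters, and in 10 or 11 with 1 library left out.

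**Figure D3:**
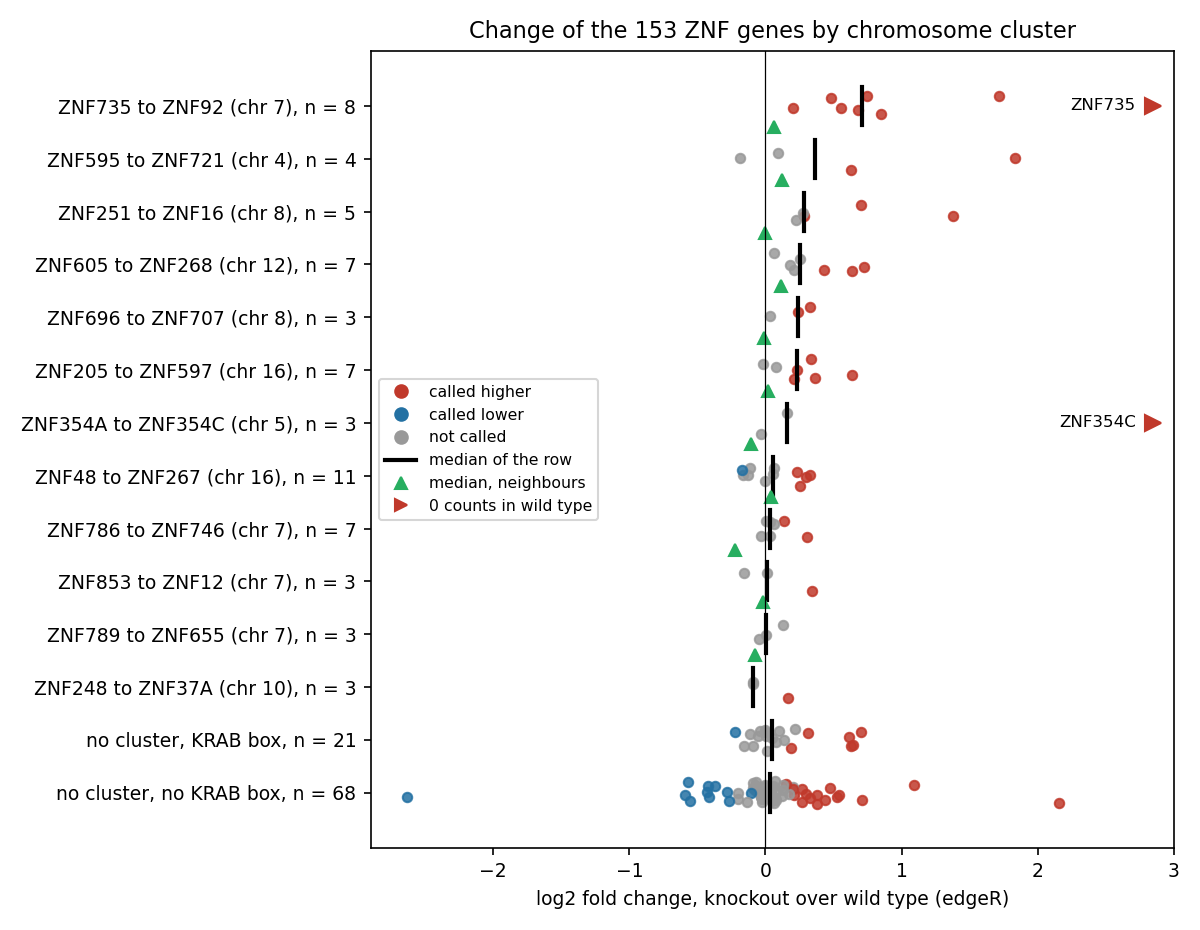
Log2 fold change, knockout over wild type, of every member (points) by chromosome cluster, with the row's median as a black bar and the median of other protein-coding genes within 1 Mb as a green triangle; red and blue points were called higher and lower, grey points were not called. All 8 members of the cluster from ZNF735 to ZNF92 lie above 0 and were called; red triangles at the right edge stand for ZNF735 and ZNF354C, which had 0 wild-type counts and have no finite fold change.

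The cluster from ZNF735 to ZNF92 on chromosome 7 (chr7:64045443-65401135, GRCh38) was the one in which every member rose. ZNF735 entered only through the knockout and had to rise. The other 7 members had a median of 0.68 in log2 fold change (0.71 with ZNF735), 7 of the 8 carry a KRAB box, and the 7 other protein-coding genes within 1 Mb had a median of 0.07, with 2 higher and 1 lower. ZNF735 (ENSG00000223614, chr7:64207090-64220508) was listed at 0, 0 and 0 counts in wild-type libraries and at 142, 150 and 145 counts in the knockout libraries, at least 43.3-fold higher against a floor of 3 counts per library (adjusted p = 1.92e-35). Its fitted log2 fold change of 10.15 depends on the prior count of the model and is no bound. At 14.7 ± 0.527 CPM (SD, n = 3) it was the lowest of the 8 members in the knockout by this measure.

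The other members of that cluster were expressed in both genotypes. ZNF117 (chr7:64971776-65006684) rose most, from 4.81, 4.97 and 6.21 CPM to 18.1, 17.2 and 17.2 CPM (log2 fold change 1.72 ± 0.12, SE, adjusted p = 2.65e-21). Its exons overlap those of ERV3-1, an endogenous retrovirus gene on the same strand, and reads of these genes cannot be fully told apart. Reads that fit more than 1 gene, 8.37% to 8.41% of the listed reads, were listed as ambiguous and counted for no gene. ZNF138 was at 27.3, 22.5 and 26.1 CPM in the wild type and at 46.4, 47 and 44.1 CPM in the knockout (log2 fold change 0.85 ± 0.07, SE, adjusted p = 2.11e-18). ZNF680 was at 23.1, 18.8 and 21.8 CPM and at 35.5, 34.2 and 37.5 CPM (0.75 ± 0.08, SE, adjusted p = 5.71e-14). In both genes the groups were separated by more than the spread within either. ZNF273 rose by 0.68, ZNF107 by 0.55 and ZNF736 by 0.48 on the log2 scale, and in these too the groups did not overlap. ZNF92 changed least, at 25.5 ± 2.28 CPM and 29.4 ± 2.4 CPM (SD, n = 3 each; log2 fold change 0.21, adjusted p = 0.0216), its libraries overlapped, and its call was lost without wild-type replicate 2 (adjusted p = 0.131), without knockout replicate 1 (0.0667) or 2 (0.137), and with the knockout libraries summed (0.0508).

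A pair of ZNF genes in the interval of this cluster, which begins before its first member, did not reach the count minimum. They are named because of their values, which were seen first. ZNF679 had 1, 0 and 0 counts in wild-type libraries and 61, 60 and 52 in the knockout libraries (adjusted p = 8.07e-23), and ZNF727 had 0, 1 and 1 counts and 54, 46 and 59 counts (adjusted p = 2.43e-21). With ZNF735, 3 of the 10 annotated ZNF genes of the cluster were therefore at or near 0 in the wild type and detected in every knockout library. The genes of this cluster are close relatives. Reads that aligned to more than 1 place, 6.86% to 7.19% of the listed reads, were counted for no gene, so levels of close copies are uncertain.

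Promoter sequence of 5 members of this cluster, and of ZNF141 on chromosome 4, is shown because a run of 9 letters recurs in it. Sequences are the bases before the gene's start from RefSeq (GRCh38.p14), on the gene's strand from 5′ to 3′, ended where the GENCODE transcript begins. Capitals mark CCAATCAGG, which was searched on both strands after the sequences had been seen and which contains the CCAAT box. The windows are chr7:64206953-64207089 (plus strand), chr7:64563107-64563321 (minus), chr7:64794178-64794387 (plus), chr7:64665883-64666082 (plus), chr7:65373605-65373798 (plus) and chr4:337564-337813 (plus).
ZNF735: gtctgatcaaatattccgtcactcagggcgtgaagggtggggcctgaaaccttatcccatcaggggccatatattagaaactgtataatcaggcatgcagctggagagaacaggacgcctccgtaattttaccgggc
ZNF680: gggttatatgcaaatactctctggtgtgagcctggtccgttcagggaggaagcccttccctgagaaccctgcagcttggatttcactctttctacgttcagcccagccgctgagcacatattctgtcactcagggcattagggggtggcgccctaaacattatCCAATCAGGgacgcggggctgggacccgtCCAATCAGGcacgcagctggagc
ZNF138: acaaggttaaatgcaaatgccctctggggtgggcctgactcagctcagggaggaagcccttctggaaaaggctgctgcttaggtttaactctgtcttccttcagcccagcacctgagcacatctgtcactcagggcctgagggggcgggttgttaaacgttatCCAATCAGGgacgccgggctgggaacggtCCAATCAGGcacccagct
ZNF107: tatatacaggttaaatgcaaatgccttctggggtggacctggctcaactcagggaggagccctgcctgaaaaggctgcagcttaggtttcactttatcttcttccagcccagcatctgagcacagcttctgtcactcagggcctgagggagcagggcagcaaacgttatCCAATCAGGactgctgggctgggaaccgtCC
ZNF92: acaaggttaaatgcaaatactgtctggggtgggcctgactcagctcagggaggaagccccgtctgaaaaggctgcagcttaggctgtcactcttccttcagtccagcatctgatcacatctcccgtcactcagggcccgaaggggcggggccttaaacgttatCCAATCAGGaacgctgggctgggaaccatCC
ZNF141: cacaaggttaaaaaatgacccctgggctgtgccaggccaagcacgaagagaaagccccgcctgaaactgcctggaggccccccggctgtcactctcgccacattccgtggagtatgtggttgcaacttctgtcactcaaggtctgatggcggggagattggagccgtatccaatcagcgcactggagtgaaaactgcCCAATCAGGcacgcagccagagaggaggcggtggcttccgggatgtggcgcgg

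The motif occurred 2 times in the ZNF680 and ZNF138 windows shown, 1 time in those of ZNF107, ZNF92 and ZNF141, and not in that of ZNF735. In the 250 bases before the RefSeq start it was found in 382 of 35116 promoters (1.09%) and in 9 of the 128 members that had a RefSeq promoter (7.03%). All 9 were KRAB members: ZNF680, ZNF138, ZNF107 and ZNF92 of the chromosome 7 cluster, ZNF141 and ZNF595 of chromosome 4, and ZNF267, ZNF519 and ZNF195. ZNF735, ZNF117, ZNF273 and ZNF736 of the chromosome 7 cluster have a promoter without the motif. Because the motif was noticed in promoters of members that rose, the share of rises among its carriers is not given. Apart from the 6 promoters shown and that of ZNF354C, it was in 4 of 121 member promoters (3.31%). These promoters are not independent of each other, since they come from duplicated genes: the ZNF138 window shares a run of 37 bases with that of ZNF92, 22 with that of ZNF107 and 18 with that of ZNF680. The other motifs searched were the following. The CCAAT box (CCAAT) was in 39.8% of member promoters and 32.0% of all promoters, the GC box (GGGCGG) in 62.5% and 42.6%, and the TATA box (TATAAA) in 3.13% and 10.7%. ACTACA, a core of the sequence bound by ZNF143, was in 12.5% and 7.28%, the cyclic AMP response element (TGACGTCA) in 4.69% and 1.65%, and the E-box (CACGTG) in 5.47% and 6.35%. Member promoters held a median of 20 CpG dinucleotides per 250 bases against 11 in all promoters. Unlike the members, all promoters were taken without a filter on gene type or expression. Whether these shares differ from those of other expressed protein-coding genes was not tested.

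On chromosome 4, the cluster from ZNF595 to ZNF721 at the end of the short arm had 2 rises among 4 members. ZNF141 (ENSG00000131127, chr4:337814-384864), a KRAB gene with 10 fingers, was at 11.1, 8.93 and 10.3 CPM in the wild type and at 34.3, 35.8 and 38.6 CPM in the knockout (log2 fold change 1.84 ± 0.09, SE, adjusted p = 4.51e-31). ZNF595 rose by 0.63 on the log2 scale (adjusted p = 1.2e-05). Their neighbours ZNF718, at 13.2 ± 2.38 and 11.7 ± 0.789 CPM, and ZNF721, at 39.5 ± 2.28 and 42.2 ± 2.51 CPM (SD, n = 3 each), did not pass the test. Adjacent genes of this cluster thus had values on both sides of 0.

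The cluster from ZNF354A to ZNF354C on chromosome 5 held the other member without a wild-type read. ZNF354C (ENSG00000177932, chr5:179060415-179083537), a KRAB gene with 11 fingers, had 0, 0 and 0 counts in wild-type and 116, 120 and 122 in knockout cells, at least 35.5-fold higher against the floor of 3 counts (adjusted p = 9.8e-33). Like ZNF735 it was a member only through the knockout and had to rise. Its exons overlap AC104117.2, a processed pseudogene of 515 bases on the other strand. Reads of the shared stretch cannot be told apart in this kit, and ambiguous reads were counted for neither gene. AC104117.2 itself was listed at 0 counts in all 6 non-directional libraries, which therefore does not show that it was silent. Its relatives did not pass the test, so that without ZNF354C the cluster held no call: ZNF354B was at 11.8 ± 1.6 CPM and 13.2 ± 0.972 CPM, and ZNF354A at 8.35 ± 0.966 CPM and 8.21 ± 0.811 CPM (SD, n = 3 each). Of 16 other protein-coding genes within 1 Mb 1 rose and 8 fell.

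On chromosome 8 the cluster from ZNF251 to ZNF16 rose in 3 of 5 members. ZNF517 (chr8:144798876-144811169) was at 14.1, 13.1 and 13.7 CPM and at 34.6, 35.8 and 36.2 CPM (log2 fold change 1.38 ± 0.08, SE, adjusted p = 8.43e-26), and ZNF7 at 25 ± 0.795 and 40.7 ± 1.13 CPM (SD, n = 3 each; 0.71, adjusted p = 1.38e-14). Exons of ZNF7 overlap COMMD5 on the other strand, which had 412 to 447 counts in wild-type and 653 to 693 in knockout libraries. Reads of their shared stretch cannot be told apart in this kit. ZNF251 rose by 0.29 (adjusted p = 0.0123), but its libraries overlapped and the call was lost without wild-type replicate 1 (0.0813) or 3 (0.0535) or knockout replicate 2 (0.149). ZNF16 and ZNF250, at 0.28 and 0.22, did not pass, although ZNF16 did without wild-type replicate 2 (adjusted p = 0.0355). In the nearby cluster from ZNF696 to ZNF707 2 of 3 members rose, and the call of ZNF707 (0.33, adjusted p = 0.00953) rested on overlapping libraries and was lost without wild-type replicate 1 (0.119) or knockout replicate 1 (0.0741). ZNF696 lost its call without knockout replicate 1 (adjusted p = 0.0611) or 2 (0.0503).

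At the end of chromosome 12, in the cluster from ZNF605 to ZNF268, all 7 members carry a KRAB box and 3 rose. ZNF891 rose by 0.72 and ZNF605 by 0.43, and ZNF268 was at 29.5 ± 2.37 CPM and 46.0 ± 3.28 CPM (SD, n = 3 each; log2 fold change 0.64, adjusted p = 3.24e-13). ZNF891 overlaps ZNF140 on the other strand. In this kit their reads cannot be separated where they overlap, and ambiguous reads were counted for neither gene. ZNF10 (KOX1), whose KRAB domain is widely used in engineered repressors, was at 10.5 ± 1.52 CPM and 12.5 ± 0.776 CPM (SD, n = 3 each; 0.25, adjusted p = 0.0621) and did not pass, except without wild-type replicate 1 (adjusted p = 0.0146). The neighbourhood also moved: 7 of 11 other protein-coding genes within 1 Mb rose and none fell, with a median of 0.11 beside 0.25 for the members.

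On chromosome 16, 5 of 7 members of the cluster from ZNF205 to ZNF597 rose, with a median of 0.23. ZNF75A was at 17.0 ± 2.69 CPM and 26.3 ± 1.11 CPM (SD, n = 3 each; log2 fold change 0.64, adjusted p = 2.86e-09), and ZNF263 at 60.4 ± 3.05 CPM and 69.7 ± 3.25 CPM (0.21, adjusted p = 0.000421). In the longer cluster from ZNF48 to ZNF267 4 of 11 members rose and 1, ZNF646, fell, and its median of 0.05 was 0.0027 without wild-type replicate 2 and 0.0166 without knockout replicate 2. The call of ZNF646 (-0.17, adjusted p = 0.026) was lost without wild-type replicate 2 (0.116) or knockout replicate 1 (0.0557) or 2 (0.163). ZNF764 had the largest value there (0.32, adjusted p = 0.0134), with overlapping libraries, and was not called without wild-type replicate 2 (0.142) or 3 (0.0942).

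Other clusters moved little. In the cluster from ZNF786 to ZNF746 on chromosome 7 all 7 members have a KRAB box, and only ZNF786 (0.31, adjusted p = 0.00631) and ZNF398 (0.13, adjusted p = 0.0493) passed the test. ZNF786 did not pass without wild-type replicate 1 (0.0661) or knockout replicate 1 (0.0854), and ZNF398, whose libraries overlapped, did not without wild-type replicate 3 (0.274) or knockout replicate 2 (0.115) or 3 (0.205). Its surroundings differed in direction: of 7 other protein-coding genes within 1 Mb 6 fell and 1 rose, with a median of -0.23, beside 0.04 for the members. ZNF746 (PARIS), a substrate of the ubiquitin ligase parkin, was at 48.4 ± 1.02 CPM and 47.2 ± 0.404 CPM (SD, n = 3 each). In the cluster from ZNF853 to ZNF12 1 of 3 members rose, ZNF12 by 0.34 on the log2 scale, and the median of 0.0078 was -0.0096 without wild-type replicate 1 and -0.012 without knockout replicate 2. None of the 3 members from ZNF789 to ZNF655 passed, and there ZNF394 had the largest value (0.13, adjusted p = 0.23). The median of this cluster, 0.0064, was -0.026 without wild-type replicate 3 and -0.015 without knockout replicate 3. The cluster from ZNF248 to ZNF37A on chromosome 10 had a median of -0.09, which was -0.034 without wild-type replicate 2 and -0.020 without knockout replicate 2. Its 1 rise, ZNF37A (0.16, adjusted p = 0.00974), came from overlapping libraries and was not called without wild-type replicate 2 (0.101) or knockout replicate 2 (0.144).

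**Figure D4:**
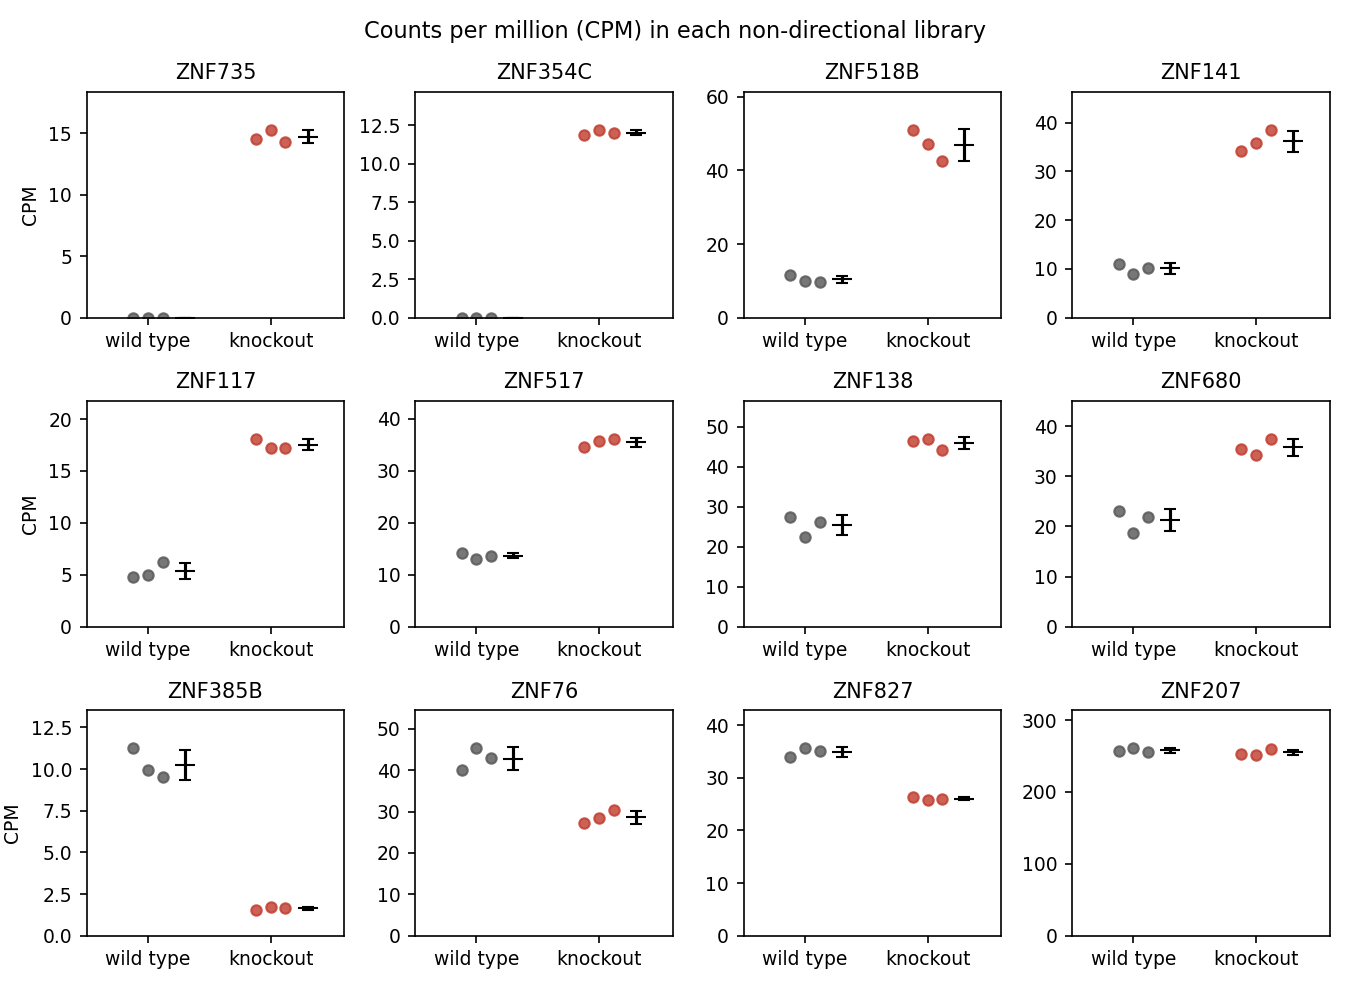
Level (y axis, CPM, each panel from 0) of 12 members in each of the 3 wild-type (grey) and 3 knockout (red) non-directional libraries, with the mean and SD as a bar beside the points. The groups do not overlap in 11 of the panels; the 12th, ZNF207, sits between 252 and 262 CPM in both genotypes.

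Several members outside the clusters changed strongly as well. ZNF518B (ENSG00000178163, chr4:10439874-10457410), which has no KRAB box and is known to bind the H3K9 methyltransferase G9a, was at 11.6, 10.1 and 9.74 CPM in the wild type and at 51.1, 47.1 and 42.5 CPM in the knockout (log2 fold change 2.16 ± 0.09, SE, adjusted p = 7.19e-37). Its relative ZNF518A was among the members that fell. ZNF594 rose by 1.09 on the log2 scale, from 9.68 ± 1.17 CPM to 20.8 ± 0.925 CPM (SD, n = 3 each; adjusted p = 1.72e-15), and ZNF280B by 0.71, from 10.3 ± 0.851 CPM to 16.8 ± 1.14 CPM (adjusted p = 2.74e-08). ZNF609, a long gene whose protein works with the cohesin loader, had 1 finger and rose from 128 ± 6.26 CPM to 173 ± 4.79 CPM (SD, n = 3 each; 0.44, adjusted p = 7.27e-17).

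The falls came from members without a KRAB box except ZNF33B. ZNF385B (ENSG00000144331, chr2:179441982-179861505) was at 11.3, 9.95 and 9.52 CPM in the wild type and at 1.54, 1.73 and 1.67 CPM in the knockout, a log2 value of -2.63 ± 0.19 (SE). It had passed the count minimum only through the wild type, so its fall is given as a description. ZNF704 was at 12.2 ± 1.37 CPM and 8.05 ± 1.06 CPM (SD, n = 3 each; -0.59, adjusted p = 3.37e-05). ZNF76, a relative of the promoter factor ZNF143, was at 40, 45.4 and 42.9 CPM and at 27.2, 28.4 and 30.3 CPM (-0.57, adjusted p = 2e-11). ZNF143 itself, at 38.5 ± 1.04 CPM and 35.0 ± 2.43 CPM (SD, n = 3 each), did not pass the test (adjusted p = 0.0794), except without knockout replicate 2 (0.0413). ZNF219, a partner of SOX9 in cartilage, had a log2 fold change of -0.56, ZNF827, which brings the NuRD complex to telomeres, one of -0.42, and ZNF706 one of -0.37. ZNF503, a corepressor of the NET family, had -0.43, while its relative ZNF703 (0.12, adjusted p = 0.462) did not pass. ZNF341, which activates STAT3 expression, had -0.42 from 76 to 80 counts in wild-type and 57 to 65 in knockout cells.

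The members highest per kilobase of exon moved little. ZNF664 was at 38.8 CPM per kb in wild-type and 36 in knockout cells (log2 fold change -0.11, adjusted p = 0.00569). Its libraries overlapped and it was not called without knockout replicate 1 (adjusted p = 0.109) or with the knockout libraries summed (0.115). ZNF622, a factor of ribosome maturation, was at 33.7 and 34.7 CPM per kb, ZNF330, a nucleolar protein, at 28.3 and 29.2, ZNF598, a ubiquitin ligase that acts on collided ribosomes, at 24.3 and 25.7, and ZNF768 at 22.6 and 22.5, and none of these 4 passed the test. None of these 5 carries a KRAB box. Of 24 ZNF genes listed for their known functions 22 were members, of which 4 rose and 4 fell, a smaller share than the 25.5% and 25.9% of all genes tested. ZNF445, a KRAB protein that guards imprinted methylation, was at 40.2 ± 0.982 CPM and 41.6 ± 1.2 CPM, and ZNF638, which silences unintegrated retroviral DNA with the HUSH complex, at 147 ± 3.45 CPM and 145 ± 3.9 CPM (SD, n = 3 each), neither past the test. ZNF207 (BuGZ), a spindle assembly factor, was the most abundant member, at 258 ± 3.3 CPM and 255 ± 3.93 CPM. ZNF217, an oncoprotein of breast cancer, rose by 0.20 and ZNF148 (ZBP-89) had a log2 fold change of -0.27 (adjusted p = 1.56e-05). ZNF292, ZNF335, ZNF384 and ZNF592 had values of 0.06, 0.07, 0.13 and 0.05 and did not pass, although ZNF292 did without wild-type replicate 1 (adjusted p = 0.0454).

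The same rule applied to the chromosomes left out gave other splits. On chromosome 19, 127 of 182 ZNF genes rose and 3 fell, with a median log2 fold change of 0.38 against 0.07 for the members. The 9 genes of chromosome 9 had 6 rises and no fall, and the 17 of chromosome 1 had 1 rise and 9 falls. These are counts beside each other and the differences were not tested. Shares of the other genes on chromosomes 1 and 9 are not given here, so those splits are not read as particular to ZNF genes.

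The proteins that act with KRAB zinc finger proteins were followed from a list of 28 genes, all tested, of which 11 rose (39.3%) and 8 fell (28.6%), beside 25.5% and 25.9% of all genes. SETDB1, the gene knocked out, is in this list and among the 8 falls, so its fall is no result about the partners. TRIM28, the protein that KRAB domains bind, was at 1144 ± 64.8 CPM and 1060 ± 4 CPM (SD, n = 3 each; log2 fold change -0.11, adjusted p = 0.000167). ATF7IP, the partner that stabilises SETDB1 in the nucleus, had 586, 502 and 543 counts in wild-type and 1675, 1780 and 1800 in knockout cells (1.62 ± 0.04, SE, adjusted p = 3.69e-49), while ATF7IP2 (0.04, adjusted p = 0.751) did not pass. Among the H3K9 methyltransferases SUV39H1 had a log2 fold change of -0.74 (adjusted p = 4.59e-19), and SUV39H2, EHMT1 and EHMT2 did not pass. Of the HP1 genes CBX5 fell by 0.25 and CBX3 by 0.09 on the log2 scale, and CBX1 rose by 0.13. Of the HUSH complex and its effector, FAM208A rose by 0.30, PPHLN1 by 0.18 and MORC2 by 0.27, and MPHOSPH8 (-0.06, adjusted p = 0.299) did not pass. DNMT3B rose by 0.43, and DNMT1 and UHRF1 fell by 0.23 and 0.19 on the log2 scale. CHD3, a subunit of the NuRD complex, fell by 0.31.

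In the directional kit few members could be read. There, 94.6% of reads were placed in no gene and 5.23% to 5.30% in genes, and the median member had a mean of 1.83 counts, so 18 of the 153 members passed the filter. Of these 18, 16 overlap a gene on the other strand. In all 4 members were called, each higher, ZNF517, ZNF232, ZNF263 and ZNF771, where 16.2% of all genes tested were called. Relative to the other genes these members stood higher than in the non-directional kit, at 974% of their non-directional CPM for ZNF517, 187% for ZNF232, 492% for ZNF263 and 6425% for ZNF771, and they are not read as a repeat of the non-directional result. What share of these reads came from other transcripts was not tested. ZNF517, which overlaps no gene on the other strand, had 51, 67 and 40 counts in wild-type and 256, 206 and 182 in knockout cells (log2 fold change 2.08 ± 0.12, SE, adjusted p = 8.87e-28), and ZNF232 had 17 to 30 counts and 57 to 80 counts (1.47, adjusted p = 3.04e-10). The difference of the genotype effect between the kits passed the test in 4 of 153 members, against 1.82% of all genes, and 1 of the 4, ZNF354C, had too few counts for that test to bear on it. For ZNF354C the directional tables listed 3, 0 and 3 counts in wild-type and 3, 0 and 1 in knockout libraries. For AC104117.2, the pseudogene on its other strand, they listed 0, 0 and 0 counts and 27, 25 and 29 counts, whereas the non-directional tables listed 0 in each library. For ZNF771 the directional tables listed 368 to 527 counts per library, and for DCTPP1, on its other strand, 8 to 16. The other kit listed 107 to 155 counts for ZNF771 and 908 to 1118 for DCTPP1. This pair is an example, and such pairs were not counted over all members. Directional counts under a member's name, its calls included, may thus not be reads of that gene. Which strand the directional tables count was not tested over all genes.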

How the data were processed

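The authors deposited raw read counts per gene, 1 table per library, in the layout of HTSeq. Per the submitters' processing notes, tools were Trim Galore 0.4.4, STAR 2.6.0a, SAMtools 1.9, Picard 2.23.8, HTSeq 0.11.1, DESeq2 3.14 and bedtools, on build hg38, with no role or order given. The publication named in the header does not describe these libraries, and nothing was taken from it. Symbols, positions and exon overlaps came from GENCODE release 29, which all 58735 gene IDs matched. Signal tables for L1 elements were not used here.

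Groups were read from the sample titles. Kits were fitted separately in edgeR 4.0.16 (R 4.3.3) by its quasi-likelihood test, with TMM scaling, filterByExpr at a minimum count of 10 and a total of 15, and Benjamini-Hochberg adjustment over all genes tested with a threshold of 0.05. The script was tested on simulated data. Standard errors are approximate. A floor of 3 counts equals 0.294 to 0.336 CPM in the non-directional libraries and 4.43 to 5.64 CPM in the directional libraries. Reads carry no molecular identifiers, so floors cover counting error only.

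The members and all lists were chosen with earlier results of these data known. Named genes were the 12 largest rises and 8 largest falls that passed the threshold with libraries that do not overlap, the 5 highest levels per kb, the largest change in each cluster, the genes on either side of the count minimum and a list of 24 genes of known function. The KRAB box was called from a score of at least 60 against a consensus of 38 residues. Exons of 84 members overlap another gene. Promoters were matched by symbol for 128 of 153 members. Same-numbered replicates did not deviate together, with mean correlations of -0.01 and -0.0016 in the non-directional and directional kits. The alternatives were other scalings, no filter, DESeq2 1.42.0, a replicate block, 1 fit over 12 libraries, leaving out each library, other count minimums and cluster distances and, added after seeing the data, the knockout libraries summed as 1 and counts without the 3 members that passed the count minimum through 1 genotype alone.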

Additional observations from a re-analysis of the deposited data

Results flagged for a closer look

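The difference of the genotype effect between the 2 kits passed the threshold in 4 members, by the genotype by kit term of an edgeR fit over all 12 libraries. The term, directional minus non-directional on the log2 scale, was 1.07 for ZNF232 (adjusted p = 6.05e-05), 0.78 for ZNF517 (adjusted p = 0.00037) and 0.43 for ZNF771 (adjusted p = 0.0477). It was -9.38 for ZNF354C. The counts listed for ZNF232 and ZNF517 were higher in the knockout in both kits. Which strand the directional tables count was not tested, so the directional counts may not be those of these genes. ZNF771 was called higher in the directional kit alone, at 368 to 508 counts in the wild type and 506 to 527 in the knockout, and was at -0.13 in the other kit. The value of ZNF354C depends on the prior count of the model, since it had no wild-type reads in the non-directional kit and at most 3 counts in any directional library, so it does not show that the effect differed.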

How the results depend on the processing

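Of the 67 members called, 44 (36 higher and 8 lower) were called in all 14 alternative fits. DESeq2 called 45 members, all among the 67, with 8 lower. A fold change of at least 2 left 8 members, 7 higher and 1 lower, and the 69 members whose exons overlap no other gene held 34 calls, 28 higher and 6 lower. One fit over 12 libraries gave 57 calls and a median log2 fold change of 0.0053 (all genes -0.06), with 14 members without a KRAB box higher and 2 KRAB members lower. DESeq2 gave 0 KRAB members lower, and 6 other zinc finger genes called with 1 lower. Leaving out each library gave 58 to 64 members called, 1 to 2 KRAB members lower and 2 to 7 other zinc finger genes lower. A replicate block gave 67 members called and changed no call of a member. The numbers share no stated litter, day or culture. Among the genes named, no direction reversed in a called value. DESeq2 did not call ZNF341, ZNF503, ZNF664, ZNF707, ZNF764, ZNF786 or ZNF37A. Few counts limit the lowest members, and in the directional kit the share of reads placed in genes, 5.23% to 5.30%, limits nearly all members.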

Other observations

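Zinc finger genes of the ZKSCAN, ZSCAN, ZFP and ZBTB families on autosomes other than 1, 9 and 19, 38 genes at the same count minimum, had 7 rises (18.4%) and 5 falls (13.2%), beside 25.5% and 25.9% of all genes tested, with a median log2 fold change of 0.04. ZFP42 (REX1), a marker of pluripotent cells, was at 1.97 ± 0.166 CPM in the wild type and 17.8 ± 1.55 CPM in the knockout (SD, n = 3 each; log2 fold change 3.17, edgeR adjusted p = 5e-31). At its wild-type level ZFP42 met the count minimum only through the knockout and had to rise, and it is 1 of the 7 rises. ZFP90, a KRAB protein, rose by 0.48 and ZKSCAN5 by 0.30 on the log2 scale. ZKSCAN1 was at 68.4 ± 3.9 CPM and 44.0 ± 1.93 CPM (-0.64, adjusted p = 5.24e-17). Of the 7 ZSCAN genes 1 was called, ZSCAN9 at -0.35. Of the 16 ZBTB genes 2 rose and 2 fell. ZFP36L1, which is a CCCH zinc finger protein that binds RNA, rose by 0.55, and ZFP36L2 of the same family, at 52.9 ± 4.7 CPM and 52.8 ± 0.909 CPM, did not pass the test.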
